A study of Saccharomyces cerevisiae with 18 samples.

Results

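Budding yeast takes up amino acids through a family of related permeases in the plasma membrane, and 10 of their genes were followed here in yeast carrying wild-type or mutant Spn1, a histone chaperone that travels with RNA polymerase II. The set was drawn because AGP1 was higher in mutant cells, most clearly in the truncated mutant spn1 141-305. It holds 6 genes placed under the SPS amino acid sensor (AGP1, GNP1, BAP2, BAP3, TAT1 and DIP5). The 4 other permease genes are TAT2, GAP1, MUP1 and HIP1. Members were found by their systematic names, and all 10 were present among the 6577 genes of the expression matrix and passed the filter on low values. AGP1 chose the set, so its values are given as a description, and tests are reported for the 9 other permeases only.

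Poly-A selected RNA was sequenced from 3 strains, with 3 libraries of each, grown in rich medium (yeast extract, peptone and dextrose) at a temperature usual for yeast and harvested in mid-exponential phase. The strains expressed wild-type Spn1, spn1 K192N (a single substitution) or spn1 141-305 (a truncated protein that keeps the conserved core). Per the methods, every strain is a derivative of the MATa strain BY4741 in which the genomic SPN1 gene is replaced by LEU2 (spn1delta::LEU2) and the allele is supplied on a HIS3 plasmid from the native SPN1 promoter; the labels give the mutants that genotype, with plasmid pCR312 or pAA344, and give the wild-type libraries the parental genotype (his3delta1 leu2delta0 met15delta0 ura3delta0). Cells of the fission yeast S. pombe were added at a fixed ratio before RNA extraction as a spike-in, so the values refer to the number of cells, and fewer cells in a sample cannot be told apart from less RNA per cell. Whether each strain was 1 clone is not given in the sources used here. The labels give each of the 9 libraries a cell line number of its own, from BY4741 to BY4749, beside genotypes built on BY4741 alone, so p-values measure the spread between these libraries, whose relation to strains and clones is not settled.

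Amino acids outside the cell are sensed by Ssy1, a permease-like membrane protein that does not transport, together with Ptr3 and the protease Ssy5, the parts that give the SPS sensor its name. When the sensor is engaged, Ssy5 cleaves the transcription factors Stp1 and Stp2, which then enter the nucleus and, with Dal81, switch on permease genes such as AGP1, GNP1, BAP2, BAP3, TAT1 and DIP5. GAP1, the general amino acid permease, is instead activated by the GATA factors Gln3 and Gat1, which are held inactive on rich nitrogen sources, and MUP1, HIP1 and TAT2 serve methionine, histidine and tryptophan.

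To place the genes beside their upstream sequence, the 300 bases before the start codon were read from the R64 genome for each member. AGP1 (YCL025C, chrIII:76018-77919, minus strand) is shown because it had the largest increase, GNP1 (YDR508C) because it is closest to AGP1 in coding sequence and moved the other way, and TAT2 (YOL020W) because it had the largest decrease. Capitals mark CGGC, the core bound by Stp1, and GATAAG, the core bound by GATA factors, on either strand (GCCG and CTTATC when read from the other strand). The windows are chrIII:77920-78219 on the minus strand for AGP1, chrIV:1468445-1468744 on the minus strand for GNP1 and chrXV:285872-286171 on the plus strand for TAT2, each written 5′ to 3′ up to the start codon.
AGP1: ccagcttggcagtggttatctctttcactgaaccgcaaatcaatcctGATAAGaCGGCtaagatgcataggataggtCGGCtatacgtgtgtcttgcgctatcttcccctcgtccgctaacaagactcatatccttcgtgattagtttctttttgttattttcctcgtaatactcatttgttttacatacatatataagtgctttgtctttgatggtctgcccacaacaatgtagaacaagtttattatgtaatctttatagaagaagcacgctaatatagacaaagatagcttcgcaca
GNP1: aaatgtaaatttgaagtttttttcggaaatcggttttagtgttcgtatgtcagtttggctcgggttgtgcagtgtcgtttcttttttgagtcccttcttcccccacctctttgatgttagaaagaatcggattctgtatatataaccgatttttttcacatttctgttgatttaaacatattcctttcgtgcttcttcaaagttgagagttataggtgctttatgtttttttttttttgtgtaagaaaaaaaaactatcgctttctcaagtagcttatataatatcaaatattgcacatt
TAT2: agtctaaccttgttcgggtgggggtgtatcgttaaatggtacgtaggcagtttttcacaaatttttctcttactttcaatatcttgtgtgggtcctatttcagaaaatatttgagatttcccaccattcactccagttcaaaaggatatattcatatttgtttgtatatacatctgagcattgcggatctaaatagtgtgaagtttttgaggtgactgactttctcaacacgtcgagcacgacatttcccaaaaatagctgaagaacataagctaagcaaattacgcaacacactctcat
The AGP1 window held 2 CGGC matches, with first bases 246 and 223 before the start codon, and 1 GATAAG match at 253, while the GNP1 and TAT2 windows held neither.

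The same search over all 10 windows did not separate the SPS targets from the other permeases. CGGC was found in 2 of the 6 SPS targets (AGP1 and BAP2) and in 2 of the 4 others (GAP1 and HIP1), against 47.5% of 6001 windows of the same length upstream of yeast genes. GATAAG was found upstream of AGP1 and, with 2 matches, of GAP1, against 14.7% of all windows. TGACTC, the core of the Gcn4 site, was present before BAP2, MUP1 and HIP1 and in 7.77% of all windows. TATAAA, the core of the TATA box, was in 3 of the 10 (AGP1, DIP5 and GAP1) and in 48.2% of all. All motifs were searched on both strands, and none of the matches in the 10 windows shared bases with a match to another motif. A match is a description of letters and does not show binding. CGGC is a short core, present in 47.5% of all windows, and sequence further upstream was not searched. With 6 SPS targets and 4 others, the search therefore cannot decide whether the groups differ in Stp1 sites. A window without CGGC does not show that the gene lacks such a site.

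Before the members are described, one feature of the libraries bears on every value below. Levels are given as rlog, a log2 scale on which DESeq2 pulls noisy differences towards 0, so that fold changes are understated. Most transcripts were lower in the mutants on the spike-in scale: the median over 5954 tested genes was -0.08 in spn1 K192N and -0.09 in spn1 141-305. The library of spn1 K192N replicate 1 stood apart from its group, since its median gene lay 0.0613 above the mean of the 9 libraries, as in wild-type (0.0181 to 0.113), while those of the other spn1 K192N libraries lay at -0.047 and -0.062 and the spn1 141-305 libraries at -0.0519 to -0.0266. Counts in spn1 K192N are given with and without it; they also moved when other libraries were left out. The alpha-mating genes MF(ALPHA)1, MF(ALPHA)2 and STE3 were at rlog 3.10 to 6.75, whereas the a-type genes STE2 and BAR1 ran from 14.40 to 14.66 and from 12.04 to 12.38. The a-type gene STE6 was at a mean rlog of 12.33 and, like STE2 and BAR1, goes with the MATa label. The a-factor genes MFA1 and MFA2, which MATa cells express, were listed at 0 in all 9 libraries, against the label. Why these genes, of only 111 and 117 bases, were at 0 was not tested. URA3 and MET17 (MET15), deleted in the labelled background, were also listed at 0. LEU2, which leu2delta0 lacks, was at 11.41, 11.30 and 11.23 in wild-type and at 11.16 to 11.30 in the mutants, so the wild-type libraries carry LEU2 as the methods describe and the parental genotype of the labels does not. SPN1 itself was at 12.27, 12.95 and 11.66 in wild-type, 13.62, 12.55 and 12.28 in spn1 K192N, and 11.06, 11.07 and 11.79 in spn1 141-305, and a substitution cannot be checked by its level. HIS3, carried on the same plasmid, was likewise highest in spn1 K192N replicate 1 (14.89).

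AGP1, a permease of broad specificity that carries asparagine, glutamine and many other amino acids, was higher in both mutants than in wild-type, and most so in spn1 141-305. Its rlog level was 11.55, 11.27 and 11.47 in the wild-type libraries, 11.70, 11.65 and 11.66 in spn1 K192N, and 12.19, 12.21 and 12.10 in spn1 141-305. The 3 genotypes did not overlap: every spn1 K192N library was above every wild-type library and every spn1 141-305 library was above both. The means were 11.43 ± 0.143 (SD, n = 3), 11.67 ± 0.0239 (SD, n = 3) and 12.16 ± 0.0584 (SD, n = 3). The fitted log2 difference from wild-type was 0.24 in spn1 K192N and 0.74 in spn1 141-305, with a standard error of 0.0794, which corresponds to ratios of 1.18 and 1.67 on the shrunken scale. The difference in spn1 K192N would not meet the threshold used for the other genes (adjusted p below 0.05). Between the mutants the difference was 0.49. AGP1 was higher in both mutants whichever of the 9 libraries was left out, with differences of 0.16 to 0.30 in spn1 K192N and 0.66 to 0.80 in spn1 141-305.

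**Figure D1:**
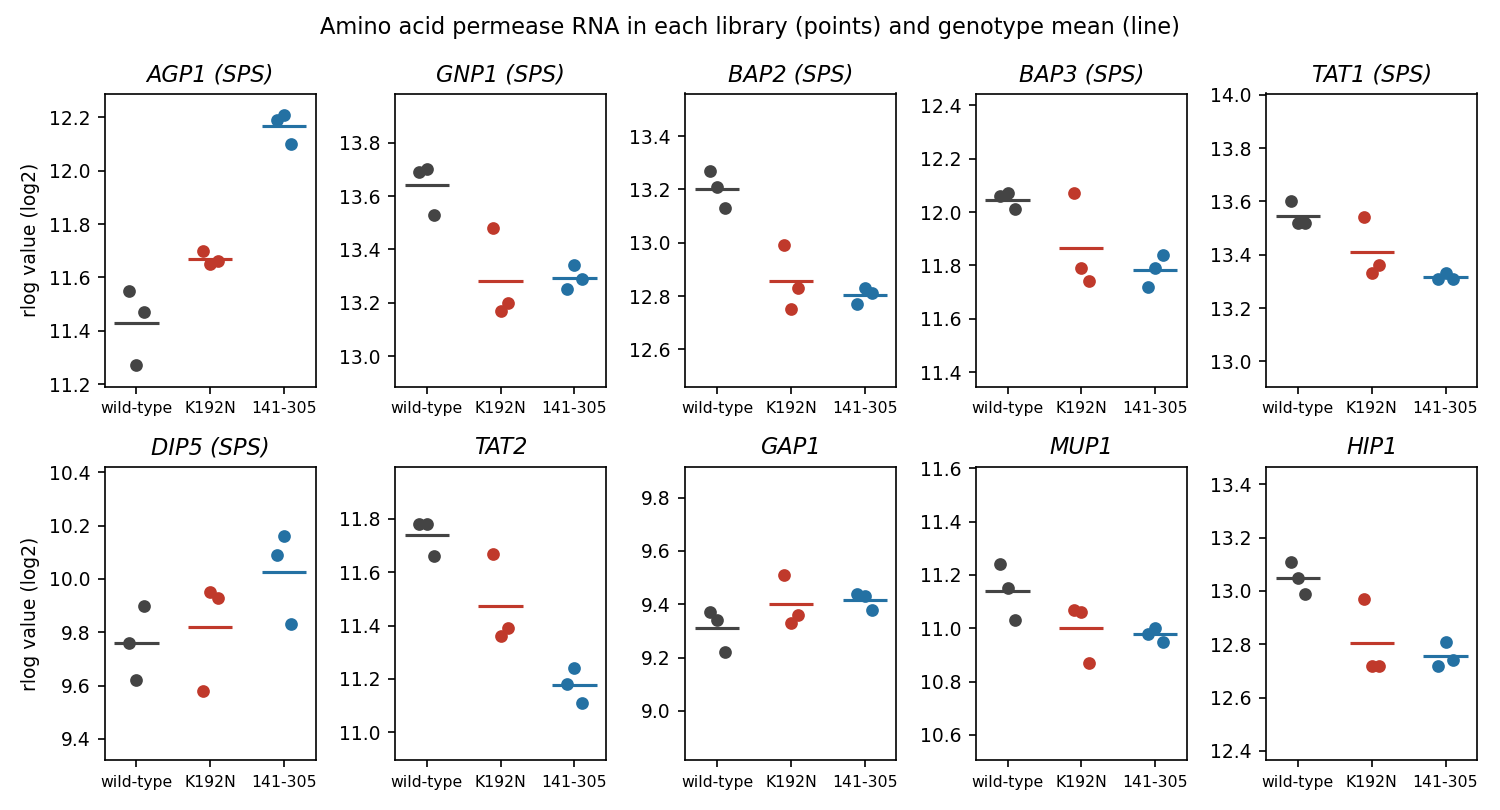
Level of each of the 10 permease genes in each of the 9 RNA-seq libraries, as deposited rlog values (log2), with 1 panel per gene, points for libraries and a line for the mean of the 3 libraries of a genotype; each panel has its own log2 axis, which does not start at 0. The mean of AGP1 climbs from 11.43 in wild-type to 12.16 in spn1 141-305. Those of GNP1, BAP2 and TAT2 are lower in both mutants than in wild-type, though the spn1 K192N libraries overlap wild-type for TAT2.

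GNP1, the high-affinity glutamine permease and the member most like AGP1, fell in both mutants. Its rlog level was 13.69, 13.70 and 13.53 in wild-type, 13.48, 13.17 and 13.20 in spn1 K192N, and 13.25, 13.34 and 13.29 in spn1 141-305. All 6 mutant libraries were below all 3 wild-type libraries, and the mutants overlapped each other. The log2 difference from wild-type was -0.36 in spn1 K192N (SE 0.0895, adjusted p = 0.0182) and -0.35 in spn1 141-305 (adjusted p = 0.00895), both by limma with Benjamini-Hochberg adjustment over all tested genes, and the mutants differed by 0.01 (adjusted p = 0.991). The call in spn1 K192N was lost without wild-type replicate 1 or 2 or spn1 K192N replicate 2 or 3, and that in spn1 141-305 without wild-type replicate 1 or 2 or spn1 141-305 replicate 1.

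Taken within a library, where a constant scaling of that library cancels, AGP1 drew closer to GNP1 in both mutants. AGP1 minus GNP1 was -2.14, -2.43 and -2.06 in the wild-type libraries, -1.78, -1.51 and -1.54 in spn1 K192N, and -1.06, -1.13 and -1.19 in spn1 141-305. The genotypes did not overlap, and the gap on the log2 scale narrowed from -2.21 ± 0.195 (SD, n = 3) in wild-type to -1.61 ± 0.148 (SD, n = 3) and -1.13 ± 0.0651 (SD, n = 3). The coding sequences of this pair were 72.6% identical over the aligned bases, the highest of the 45 pairs among the members, ahead of BAP2 with BAP3 (70.4%) and GNP1 with TAT1 (67.5%). Little exact sequence was shared: 17 of the 1872 stretches of 31 bases in AGP1 (0.908%) occurred in GNP1, and no such stretch of the 8 other members occurred in another gene.

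**Figure D2:**
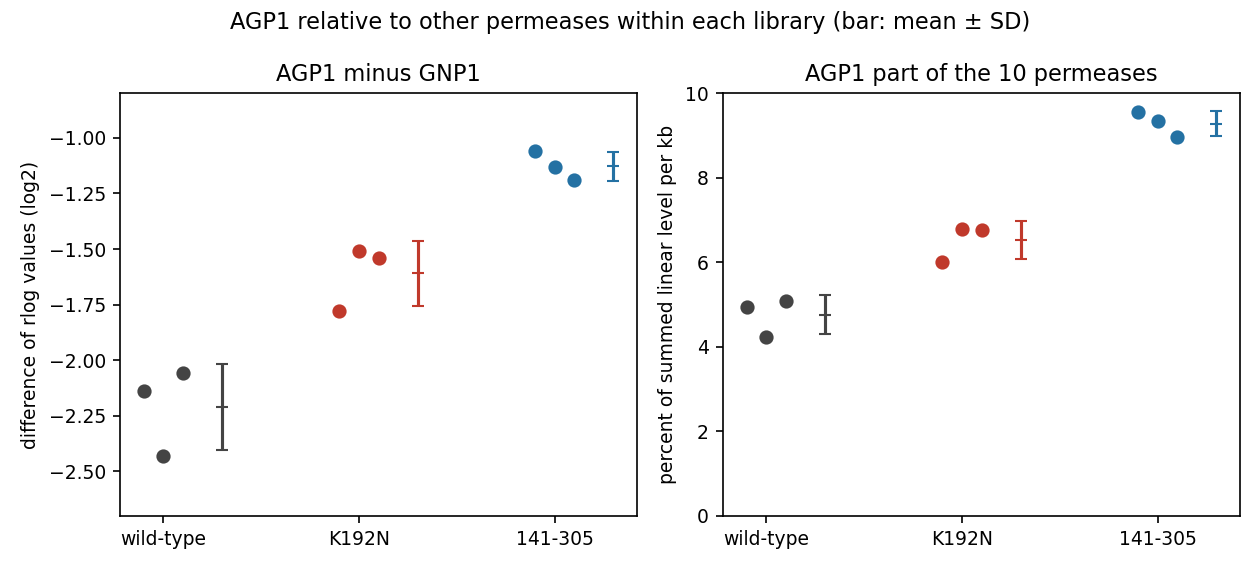
AGP1 compared with other permeases inside each of the 9 libraries: the log2 difference between AGP1 and GNP1, and the share of AGP1 in the summed level per kilobase of the 10 permeases, in percent, with 1 point per library and a bar for the mean ± SD of each genotype. Both quantities separate the 3 genotypes, with a mean AGP1 share of 4.76% in wild-type, 6.53% with the K192N allele and 9.29% with the truncated allele.

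BAP2, which carries the branched-chain amino acids leucine, isoleucine and valine, fell in both mutants. Its rlog level was 13.27, 13.21 and 13.13 in wild-type, 12.99, 12.75 and 12.83 in spn1 K192N, and 12.77, 12.83 and 12.81 in spn1 141-305. Every mutant library was below every wild-type library. The log2 difference was -0.35 in spn1 K192N (SE 0.0828, adjusted p = 0.0122) and -0.40 in spn1 141-305 (adjusted p = 0.00201), and the latter was called in all 9 fits that left out a library, the former in 5 of them (not without wild-type replicate 1 or 2 or spn1 K192N replicate 2 or 3).

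BAP3, a relative of BAP2 with a wider range of substrates, fell in spn1 141-305. Its level was 12.06, 12.07 and 12.01 in wild-type, 12.07, 11.79 and 11.74 in spn1 K192N, and 11.72, 11.79 and 11.84 in spn1 141-305. All spn1 141-305 libraries were below wild-type, whereas spn1 K192N replicate 1 lay among the wild-type libraries. The log2 difference was -0.26 in spn1 141-305 (SE 0.0832, adjusted p = 0.0274, not called with centred libraries, at -0.16 and adjusted p = 0.0582, nor without wild-type replicate 1 or 2 or spn1 141-305 replicate 1 or 2) and -0.18 in spn1 K192N (adjusted p = 0.198).

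TAT1, which carries tyrosine and branched-chain amino acids and lies next to BAP2 on chromosome II on the same strand (chrII:376574-378433, with BAP2 at chrII:373861-375690), was lower in spn1 141-305. Its level was 13.60, 13.52 and 13.52 in wild-type, 13.54, 13.33 and 13.36 in spn1 K192N, and 13.31, 13.33 and 13.31 in spn1 141-305. Again spn1 K192N replicate 1 overlapped wild-type and the spn1 141-305 libraries did not. The log2 difference was -0.24 in spn1 141-305 (SE 0.0823, adjusted p = 0.0436), not called with centred libraries (adjusted p = 0.0711) nor when any wild-type or spn1 141-305 library was left out, and -0.14 in spn1 K192N (adjusted p = 0.299). These neighbours did not move by the same amount: TAT1 minus BAP2 was 0.35 ± 0.0436 (SD, n = 3) in wild-type, 0.553 ± 0.0252 (SD, n = 3) in spn1 K192N and 0.507 ± 0.0289 (SD, n = 3) in spn1 141-305, with each mutant above wild-type in every library.

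DIP5, the permease for the acidic amino acids glutamate and aspartate, was the only one of the 9 other permeases to pass the test upward. Its level was 9.76, 9.62 and 9.90 in wild-type, 9.58, 9.95 and 9.93 in spn1 K192N, and 10.09, 10.16 and 9.83 in spn1 141-305. The genotypes overlapped, since spn1 141-305 replicate 3 lay below wild-type replicate 3. The log2 difference was 0.27 in spn1 141-305 (SE 0.0924, adjusted p = 0.0411), and this call was lost without the filter on low values (adjusted p = 0.0616), without an eBayes trend, and without wild-type replicate 1 or 2 or spn1 141-305 replicate 1 or 2. In spn1 K192N the difference was 0.06 (adjusted p = 0.691).

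Among the 4 permeases outside the SPS sensor, TAT2 had the largest decrease of all members. TAT2 imports tryptophan and tyrosine with high affinity, and its level was 11.78, 11.78 and 11.66 in wild-type, 11.67, 11.36 and 11.39 in spn1 K192N, and 11.18, 11.24 and 11.11 in spn1 141-305. Each spn1 141-305 library was below all libraries of the other genotypes, and spn1 K192N replicate 1 overlapped the lowest wild-type library. The log2 difference was -0.56 in spn1 141-305 (SE 0.0826, adjusted p = 4.77e-05, ratio 0.678), called in all 9 fits that left out a library. In spn1 K192N it was -0.26 (adjusted p = 0.0579) and between the mutants -0.30 (adjusted p = 0.0606), both close to the threshold. The difference in spn1 K192N was called with a filter at mean rlog log2 of 50 (adjusted p = 0.048) and with a replicate block (adjusted p = 0.0267). Of the fits that left out a library, it was called only without spn1 K192N replicate 1 (-0.36, adjusted p = 9.29e-05). AGP1 and TAT2 changed order: AGP1 was below TAT2 by 0.19 to 0.51 in the wild-type libraries and above it by 0.97 to 1.01 in the spn1 141-305 libraries.

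HIP1, the histidine permease, fell in spn1 141-305. Its level was 13.11, 13.05 and 12.99 in wild-type, 12.97, 12.72 and 12.72 in spn1 K192N, and 12.72, 12.81 and 12.74 in spn1 141-305. All mutant libraries were below all wild-type libraries. The log2 difference was -0.30 in spn1 141-305 (SE 0.084, adjusted p = 0.0161, not called without wild-type replicate 1 or 2 or spn1 141-305 replicate 1 or 3) and -0.25 in spn1 K192N (adjusted p = 0.0795).

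MUP1, which imports methionine and cysteine, did not pass the test in either mutant. Its level was 11.24, 11.15 and 11.03 in wild-type, 11.07, 11.06 and 10.87 in spn1 K192N, and 10.98, 11.00 and 10.95 in spn1 141-305. The spn1 141-305 libraries were all below wild-type, with a log2 difference of -0.16 (SE 0.0764, adjusted p = 0.127), and that in spn1 K192N was -0.14 (adjusted p = 0.256).

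GAP1 was the lowest of the members in length-corrected level and did not pass the test. Its level was 9.37, 9.34 and 9.22 in wild-type, 9.51, 9.33 and 9.36 in spn1 K192N, and 9.44, 9.43 and 9.38 in spn1 141-305. All spn1 141-305 libraries were above wild-type, with a log2 difference of 0.11 (SE 0.0669, adjusted p = 0.253). When each library was centred on its median gene this became 0.21 (adjusted p = 0.00821), and in spn1 K192N the difference was 0.09 (adjusted p = 0.423).

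In spn1 K192N, 2 of the 9 other permeases were lower than in wild-type (BAP2 and GNP1) and 0 were higher, beside 5.21% of all tested genes called, 4.8% lower and 0.403% higher. Without spn1 K192N replicate 1 the count became 7 lower, beside 34.9% of all genes called, and it was 0 without wild-type replicate 1, wild-type replicate 2, spn1 K192N replicate 2 or spn1 K192N replicate 3, where 1.04%, 2.65%, 2.67% and 2.33% of all genes were called. At an unadjusted p under 0.05, 5 of the 9 were lower and 0 higher. The share of all genes at this unadjusted threshold was not counted, here or for the lists below. The percentages of all genes refer to adjusted p and cannot be set against the unadjusted counts. In spn1 141-305, 6 of the 9 were lower (BAP2, BAP3, GNP1, HIP1, TAT1 and TAT2) and 1 was higher (DIP5), beside 19.3% of all genes called, 18.8% lower and 0.453% higher. The lower count fell to 2 (BAP2 and TAT2) without wild-type replicate 1, wild-type replicate 2 or spn1 141-305 replicate 1, where 4.97%, 9.37% and 8.11% of all genes were called. It was 4 without spn1 141-305 replicate 2 or 3, where 11.0% and 9.71% were called, and 7 and 6 without spn1 K192N replicate 1 or 3, where 35.2% and 24.0% were called. The same shares of all genes apply to the list counts given below for these fits. With libraries centred on the median gene, 4 were lower (BAP2, GNP1, HIP1 and TAT2) and 2 higher (DIP5 and GAP1), beside 8.3% of all genes lower and 11.5% called in either direction. In spn1 K192N the centred shares were 3.28% lower and 4.57% called. These centred shares apply to the centred list counts given below. Without overlap between libraries, 7 of the 9 were below wild-type in spn1 141-305 against 45.0% of all genes, and 1 (GAP1) was above against 1.6%. In spn1 K192N, 3 of the 9 were wholly below wild-type against 18.8% of all genes, and 0 were wholly above against 1.44%. The median over the 9 was -0.18 in spn1 K192N and -0.26 in spn1 141-305, against -0.08 and -0.09 for all genes.

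**Figure D3:**
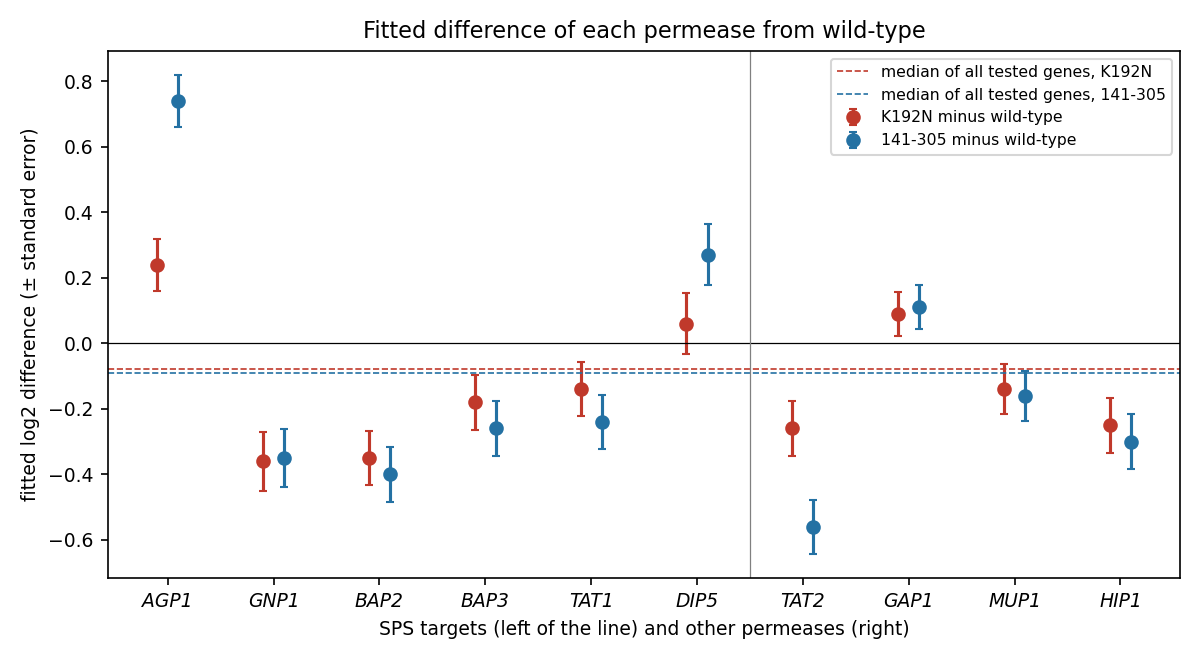
Fitted log2 difference of each mutant (K192N allele, truncated allele) from wild-type for each permease; bars show the standard error, SPS targets stand left of the vertical line and other permeases right of it, and dashed lines mark the medians of all tested genes. In spn1 141-305, TAT2 at -0.56 and AGP1 at 0.74 are the ends of the range, and 7 of the 10 permeases lie below 0.

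The medians of the SPS targets and of the other members lay close together in both mutants. With 6 targets and 4 others they cannot decide whether the groups differ, and a median does not show single genes that rose. In spn1 K192N the median log2 difference was -0.16 over the 6 SPS targets and -0.19 over the 4 others, and in spn1 141-305 it was -0.25 and -0.23. The median of the targets minus that of the others, 0.04 in spn1 K192N and -0.02 in spn1 141-305, ran from 0.01 to 0.07 and from -0.05 to 0 when libraries were left out. Within single libraries the difference between these medians was taken with each gene measured from its wild-type mean, which places the wild-type average near 0. It averaged 0.00333 ± 0.0416 (SD, n = 3) in wild-type, 0.00667 ± 0.0473 (SD, n = 3) in spn1 K192N and -0.02 ± 0.0436 (SD, n = 3) in spn1 141-305. The genotypes thus differed by less than the spread between replicates. Leaving AGP1 out, the median of the 5 remaining targets was -0.18 and -0.26. In spn1 141-305, 4 of these 5 were called lower and 1 (DIP5) higher. Of the 4 others, 2 were called lower and 0 higher, beside 18.8% of all genes lower and 0.453% higher. The targets ran from -0.40 (BAP2) to 0.74 (AGP1) in spn1 141-305, and the others from -0.56 (TAT2) to 0.11 (GAP1).

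Per length, AGP1 was one of the lower permeases in wild-type and moved up in the order of the 10. On the scale of rlog minus log2 of the coding length in kilobases, the wild-type order was TAT1 (12.66), GNP1 (12.64), BAP2 (12.33), HIP1 (12.19), BAP3 (11.18), TAT2 (10.91), AGP1 (10.50), MUP1 (10.35), DIP5 (8.89) and GAP1 (8.45). The ranges of TAT1 and GNP1, of BAP2 and HIP1, and of AGP1 and MUP1 overlapped. In spn1 K192N AGP1 ranked 6 at 10.74, overlapping TAT2 at 10.64, and in spn1 141-305 it ranked 5 at 11.24, above all libraries of BAP3 (10.92). Summed over the 10 genes per kilobase on the linear scale, AGP1 made up 4.95%, 4.24% and 5.09% in the wild-type libraries, 6.01%, 6.80% and 6.77% in spn1 K192N, and 9.56%, 9.34% and 8.96% in spn1 141-305. The genotypes did not overlap. GNP1 held 20.2% to 21.8% of the sum in wild-type, and less in the mutants (18.5% to 19.8% with the K192N allele, 19.3% ± 0.289, SD, n = 3, with the truncated allele).

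Between the mutants, 0 of the 9 other permeases passed the limma test (1 lower and 1 higher at an unadjusted p under 0.05), beside 1.9% of all genes called, 1.28% lower and 0.621% higher. The differences of spn1 141-305 from spn1 K192N ran from -0.30 (TAT2) to 0.21 (DIP5, adjusted p = 0.329), around a median of -0.05 for the 9. TAT2 was called, and no other of the 9, with the stricter filter (mean rlog at least log2 of 50, adjusted p = 0.0472) and with centred libraries (adjusted p = 0.00872). The same held with a replicate block (adjusted p = 0.024) and without spn1 K192N replicate 2 or 3. Over the fits that left out a library, the adjusted p of TAT2 ran from 0.0307 to 0.239. TAT1 and TAT2 were lower in every spn1 141-305 library than in every spn1 K192N library, against 12.0% of all genes, and 0 of the 9 were wholly higher against 4.55%. As spn1 K192N replicate 1 was higher than its group for GNP1, BAP2, BAP3, TAT1, TAT2 and HIP1, the differences of BAP2, BAP3 and HIP1 between the mutants became 0.02, 0.01 and 0.03 without it.

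Among the genes of the sensor and its signalling chain, the calls in both mutants were to lower levels. Of 22 genes, all tested, beside 4.8% of all genes lower and 0.403% higher, 2 were lower in spn1 K192N (YCK1, a casein kinase that primes the sensor, at -0.30, and CYC8, a subunit of the Tup1 corepressor, at -0.28) and 0 higher, with a median of -0.16; the count was 13 without spn1 K192N replicate 1 and 0 without wild-type replicate 1 or 2 or spn1 K192N replicate 2 or 3. In spn1 141-305, 7 were lower and 0 higher, beside 18.8% and 0.453% of all genes, with a median of -0.15 against -0.09 for all genes. No share of all genes was counted at an unadjusted p under 0.05. There, the lower genes numbered 13 with the K192N allele and 11 with the truncated allele, and 0 were higher in either. Of the 7 called in spn1 141-305, those named by their size were CYC8 (-0.27), ASI1 (-0.25), SSY1 (-0.25, adjusted p = 0.0229) and GRR1 (-0.24, adjusted p = 0.0156). ASI1 acts at the inner nuclear membrane to restrain uncleaved Stp1 and Stp2. SSY5 (-0.24, adjusted p = 0.0126) was named as part of the core of the sensor, and YCK2 was also at -0.24 (adjusted p = 0.032). GRR1 was not called with centred libraries (adjusted p = 0.068). SSY1 was at 10.33, 10.26 and 10.24 in wild-type and at 10.01, 10.08 and 10.00 in spn1 141-305, with no overlap. With libraries centred on the median gene 1 of the 22 was lower, and SSY1 and SSY5 were no longer called (adjusted p = 0.0801 and 0.0808), and leaving out libraries gave counts from 0 (without wild-type replicate 1 or spn1 141-305 replicate 1) to 11 (without spn1 K192N replicate 1), with 1 without spn1 141-305 replicate 3, 3 without wild-type replicate 2, 4 without spn1 141-305 replicate 2 and 10 without spn1 K192N replicate 3.

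STP1 and STP2, the factors released by the sensor, did not pass the test. Their partner DAL81 was called lower in spn1 141-305 (-0.20, adjusted p = 0.0422), close to the threshold. DAL81 was named after its value was seen, and its call was not followed through the alternative fits. STP1 was at 10.39, 10.26 and 10.32 in wild-type and at 10.28, 10.33 and 10.24 in spn1 141-305, a log2 difference of -0.04 (adjusted p = 0.754). STP2 differed by -0.12 in spn1 141-305 (adjusted p = 0.206) and by -0.11 in spn1 K192N (adjusted p = 0.329), and PTR3, a part of the sensor, by -0.01 and 0.00. The SPS signal is carried by cleavage of proteins, which RNA levels do not measure.

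**Figure D4:**
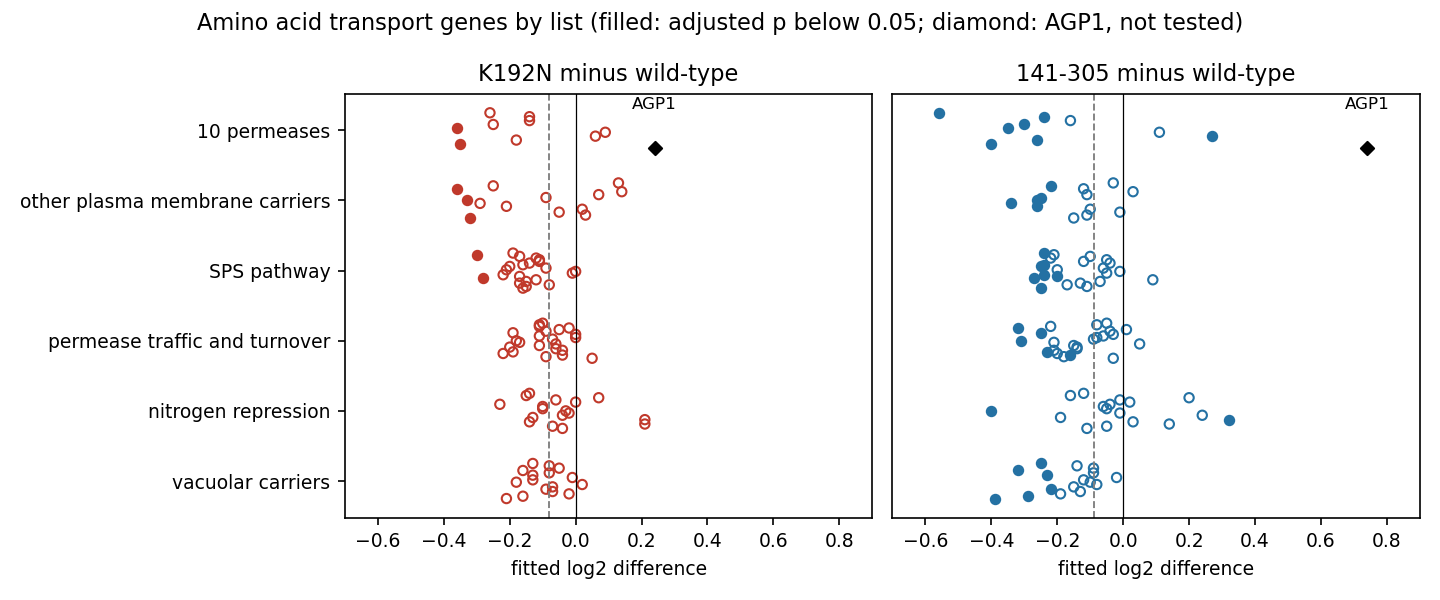
Fitted log2 differences of the permease genes and of the related lists (other carriers of the plasma membrane, SPS pathway, permease traffic and turnover, nitrogen catabolite repression, vacuolar carriers) in each mutant against wild-type, with 1 point per gene, filled for adjusted p below 0.05, AGP1 as an untested diamond, and a dashed line at the median of all tested genes. No gene of the lists reaches the 0.74 of AGP1 in spn1 141-305, which is a description only, since AGP1 chose the set for its increase.

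A further 13 permeases of the plasma membrane were followed. In spn1 K192N, 3 were lower, beside 4.8% of all genes: SAM3, which imports S-adenosylmethionine (-0.36, adjusted p = 0.0015), the lysine permease LYP1 (-0.33, adjusted p = 0.0135) and AGP2, a regulator of transport that resembles a permease (-0.32, adjusted p = 0.000435). In spn1 141-305, 5 were lower, beside 18.8% of all genes, including the choline transporter HNM1 (-0.34), LYP1 (-0.26) and the arginine permease CAN1 (-0.26), and 0 were higher in either mutant, beside 0.403% and 0.453% of all genes (2 and 0 at an unadjusted p under 0.05). The 5 became 2 with centred libraries or without spn1 141-305 replicate 3, 1 without wild-type replicate 2 or spn1 141-305 replicate 1 or 2, and 0 without wild-type replicate 1. In spn1 K192N centring gave 3 lower and 2 higher, beside 3.28% of all genes lower and 4.57% called in either direction. The count was 7 lower without spn1 K192N replicate 1. It was 2 lower and 1 higher without spn1 K192N replicate 2, and 2 lower without spn1 K192N replicate 3 or wild-type replicate 1. SAM3 and AGP2 were lower in all 9 fits that left out a library. The median of the list was -0.09 in spn1 K192N and -0.12 in spn1 141-305.

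Genes for the traffic of permeases to and from the membrane gave 0 calls of 23 in spn1 K192N by limma, beside 5.21% of all genes called. At an unadjusted p under 0.05, 6 were lower and 0 higher. In spn1 141-305, 5 of the 23 were lower and 0 higher, a share close to the 18.8% of all genes. They were ROG3, an arrestin-related adaptor for ubiquitination (-0.32, adjusted p = 0.00258), LST4, which promotes delivery of Gap1 (-0.31, adjusted p = 0.00629), NPR3 (-0.25), BUL1, an adaptor of the ubiquitin ligase Rsp5 (-0.23), and ART10 (-0.16). ROG3 and LST4 stayed lower with centred libraries, where 2 of the 23 were called. The medians were -0.09 and -0.14. The count in spn1 141-305 was 2 without wild-type replicate 1 or spn1 141-305 replicate 1 or 3, 3 without wild-type replicate 2, 10 without spn1 K192N replicate 3 and 12 without spn1 K192N replicate 1, and in the last case that in spn1 K192N was 8 lower.

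Nitrogen catabolite repression, the control that keeps genes such as GAP1 low on rich nitrogen, was followed through 19 genes, of which 17 were tested. In spn1 K192N 0 were called by limma, beside 5.21% of all genes called, with a median of -0.06. Without spn1 K192N replicate 1, 5 were lower and 1 higher. Centring gave 0 lower and 2 higher, and at an unadjusted p under 0.05 there were 2 lower and 2 higher. In spn1 141-305, glutamate synthase GLT1 was lower (-0.40, adjusted p = 0.00237) and the glutamate dehydrogenase GDH1 was higher (0.32, adjusted p = 0.0186). Beside these, 18.8% of all genes were lower and 0.453% higher. The median was -0.04, which centring moved to 0.06 with 1 lower and 4 higher, beside 8.3% of all genes lower and 11.5% called. Without spn1 K192N replicate 1 there were 4 lower and 3 higher, beside 34.2% of all genes lower and 35.2% called. GDH1 lay above wild-type in all 3 spn1 141-305 libraries but was not called without wild-type replicate 1 or 3 or spn1 141-305 replicate 1 or 2, while GLT1 was called in all 9 fits that left out a library. GLT1 was also lower in spn1 141-305 than in spn1 K192N (-0.37, adjusted p = 0.0165), a call lost without an eBayes trend (adjusted p = 0.0552) and without spn1 141-305 replicate 1 or 3 (adjusted p = 0.0704 and 0.101).

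Of 16 tested transporters that move amino acids into and out of the vacuole, 6 were lower and 10 were not called in spn1 141-305, beside 18.8% of all genes lower, and the median was -0.15. The largest were ATG22, which exports amino acids from the vacuole (-0.39, adjusted p = 0.00411), VBA4 (-0.32, adjusted p = 0.00629) and AVT1, which takes up glutamine and tyrosine (-0.29, adjusted p = 0.014). ATG22 and VBA4 were lower in all 9 fits without a library. The count was 3 with centred libraries or without spn1 141-305 replicate 2 or 3. It was 2 without wild-type replicate 1, wild-type replicate 2 or spn1 141-305 replicate 1. In spn1 K192N the count was 0 by limma, beside 5.21% of all genes called (7 calls without spn1 K192N replicate 1). At an unadjusted p under 0.05, 4 were lower and 0 higher in spn1 K192N.

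The genes on either side of AGP1 on chromosome III did not share its increase. FRM2 (chrIII:74704-75285), a nitroreductase-like gene, was near the floor of the matrix at a mean rlog of 4.99 (wild-type), 5.00 (K192N allele) and 4.96 (truncated allele), and its log2 difference in spn1 141-305 was -0.03 (adjusted p = 0.597). KCC4 (chrIII:79162-82275), a kinase of the bud neck, was at 8.52, 8.31 and 8.35 in wild-type and at 8.22, 8.18 and 8.13 in spn1 141-305, without overlap. The log2 difference of KCC4 was -0.21 (adjusted p = 0.0189), and -0.11 (adjusted p = 0.25) with centred libraries. AGP1 and KCC4 are transcribed away from each other, and the AGP1 window lies in the interval between them.

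The transcripts whose pattern over the 9 libraries was most like that of AGP1, by Pearson correlation of rlog among 5953 other genes, were not permeases. The highest were BNA7 (r = 0.91), an enzyme of the kynurenine route to NAD, PCS60 (r = 0.91), a peroxisomal protein, HIS4 (r = 0.91), an enzyme of histidine synthesis, MUS81 (r = 0.91), a DNA repair nuclease, and YMR173W-A (r = 0.90). The lowest were GAL1 (r = -0.97), the galactokinase, and YGL235W (r = -0.96). These correlations run over 3 libraries of each of 3 genotypes, which share their scaling, and are given as a description. HIS4 was at 12.20, 11.95 and 12.03 in wild-type, 12.15, 12.14 and 11.97 in spn1 K192N, and 12.38, 12.44 and 12.37 in spn1 141-305, the last above all other libraries. Among the members DIP5 (r = 0.68) and GAP1 (r = 0.54) were positive, and the others ran from -0.52 (MUP1) through -0.62 (GNP1) to -0.87 (TAT2), which ranked 5873 of 5953.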

How the data were processed

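RNA-seq was made from 9 libraries of budding yeast, and the 9 micrococcal nuclease samples of the series were not analysed here. Per the labels and the study's methods, transcripts were quantified by the authors in Salmon v1.9 against Ensembl release 113 (R64) together with S. pombe sequences, took size factors in DESeq2 v1.30.1 (R v4.0.3) from the S. pombe genes, and deposited rlog values, which are on a log2 scale and shrink differences. The deposited matrix holds no counts, so the depth of the libraries is unknown. Deposited tables of the authors' own fold changes and p-values were not used.

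The rlog values were fitted with limma 3.58.1 in R 4.3.3 with 1 mean per genotype over all 9 libraries, an eBayes trend and two-sided tests, with Benjamini-Hochberg adjustment over 5954 genes of mean rlog at least log2 of 10 and calls at adjusted p below 0.05. Of the 6577 genes, 5896 matched R64 and 216 were at 0 in all libraries. On simulated data with 200 genes changed by a log2 difference of 0.5 in spn1 141-305 against wild-type, 189 were recovered among 5954 genes and 7 others were called. The simulated noise was independent between genes and libraries, without shifts shared by a whole library. The planted 0.5 also exceeded most of the permease differences. The recovery therefore checks the code and does not measure how reliable the calls on the real libraries are. Upstream windows of 300 bases and shared stretches of 31 bases were read from the R64 genome with Python 3.11.15 and Biopython 1.88.

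The members and gene lists were chosen with earlier results of these data known, so counts are given beside those of all genes and lists were given no test. Named genes were the members, the core of the SPS sensor, up to 5 called genes of largest change per list, the neighbours of AGP1, and the 5 most and 2 least correlated genes. Of the list names, 1 did not match the matrix. Alternatives were the filter, the scaling, the eBayes trend, the 2 compared genotypes alone, a replicate block, and leaving out each library; their use on the pathway lists was chosen after seeing the data.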

Additional observations from a re-analysis of the deposited data

How the results depend on the processing

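AGP1 was higher in every comparison under every alternative tried. As AGP1 chose the set and all alternatives use the same libraries, this is a description and lends its increase no support. Counts that moved by more than 1.5 times are given here, with members counted over the 9 permeases other than AGP1. For spn1 K192N against wild-type, 310 genes and 2 members were called; the genes became 173 without an eBayes trend. For spn1 141-305 against wild-type, 1147 genes became 683 with centred libraries and 2136 with the 2 genotypes alone. Between the mutants the genes called became 253 with centred libraries and 19 without a trend, and the members called went from 0 to 1 (TAT2) with the stricter filter and with centred libraries. Centring left 3.28% of genes lower of 4.57% called in spn1 K192N, 8.3% of 11.5% in spn1 141-305 and 2.38% of 4.25% between the mutants.

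The deviations of same-numbered replicates showed no common sign (r from -0.275 to 0.245). With so few libraries per genotype, these correlations cannot exclude that same-numbered libraries were handled together. With a replicate block, the genes called became 501 in spn1 K192N, 1457 in spn1 141-305 and 146 between the mutants. The members called between the mutants became 1 (TAT2).

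Leaving out each library, genes called ran from 62 to 2075 in spn1 K192N, from 296 to 2094 in spn1 141-305 and from 63 to 188 between the mutants; members called ran from 0 to 7, 2 to 8 and 0 to 1. The SPS median minus the rest ran from 0.01 to 0.07, -0.05 to 0 and -0.03 to 0.04.

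Some small differences, none of them called, changed sign. With centred libraries FRM2 became 0.07, PTR3 0.09 and STP1 0.06 in spn1 141-305, and MUP1 0.01 between the mutants. Leaving out a library, DIP5 ran from -0.01 to 0.18 and PTR3 from -0.03 to 0.05 in spn1 K192N, and PTR3 from -0.07 to 0.04 in spn1 141-305. Between the mutants BAP2 ran from -0.10 to 0.02, BAP3 from -0.15 to 0.01, GAP1 from -0.01 to 0.07, GNP1 from -0.05 to 0.11, HIP1 from -0.09 to 0.03 and MUP1 from -0.08 to 0.01. The cause of these changes was not tested. Depth is unknown, and rlog shrinks low genes most, which limits FRM2 in particular.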
